A study of Mus musculus with 4 samples.

Results

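The genes of the Mediator complex were examined in 4 CUT&Tag libraries of primary haematopoietic stem cells from the bone marrow of mice that carry wild-type Ppp2ca. CUT&Tag uses an antibody to bring a transposase to chromatin, and the transposase then tags the DNA nearby for sequencing. An antibody to PPP2CA, the catalytic subunit of the phosphatase PP2A, was used for 2 of them, and immunoglobulin G (IgG), as a control, for the other 2. The labels give no age or strain of the mice, and do not say whether replicates are different animals, so the spread between replicates may be technical. The members were all protein-coding genes of the RefSeq table for GRCm38.p6 whose symbol is Med followed by a number, with or without a last letter, together with Cdk8, Cdk19 and Ccnc. This gave 33 of 21779 genes.

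Mediator is a large assembly that carries signals from transcription factors bound at enhancers to RNA polymerase II at promoters. Its head and middle modules touch the polymerase, its tail binds activators, Med14 runs through the complex as a scaffold, and a detachable kinase module holds CDK8 or its paralogue CDK19 with cyclin C, MED12 and MED13. PP2A removes phosphate from serine and threonine, and in human and fly cells a form bound to the Integrator complex acts on the polymerase and its pausing factors. In mouse blood stem cells Med12 is known to be needed for their maintenance.

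The PPP2CA libraries (replicates 1 and 2) listed 16811 and 17686 peaks, and the IgG libraries listed 561 and 310. The median summit was 18 fragments in either PPP2CA list and 4 in either IgG list, at a lowest local background 9.34 to 9.61 times as high in the PPP2CA lists. The median fold was 5.61 and 5.53 in PPP2CA 1 and 2, against 4.31 and 4.39 in IgG 1 and 2. It is taken as (fragments + 1) / (background + 1), and the lowest backgrounds of IgG 1 and 2 were 0.0839 and 0.0833. The added 1 outweighs a background that low, so the folds do not compare enrichment between the antibodies. A region here means a place with a peak in both PPP2CA libraries and in neither IgG library, and there were 12438 of them. Fragment intervals are exact Poisson intervals at 95% and, like all intervals here, cover counting error only. Of 15 stem cell marker genes 7 (46.7%) had a region within 1 kb of a gene boundary (Kit, Mecom, Meis1, Runx1, Tal1, Lyl1 and Hoxa9), near the 39.5% of all protein-coding genes, so this count does not bear on the labelled cell type. Among those without one were Ly6a, Cd34, Procr, Slamf1, Hlf, Gata2 and Fgd5. Of the other cell types, 1 of 8 lymphoid, 1 of 7 myeloid, 2 of 4 erythroid and 0 of 5 stromal and endothelial markers had one. A region at a gene does not measure its expression.

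Most Mediator genes carried PPP2CA signal at an end of the gene. A region lay within 1 kb of a boundary at 27 of the 33 members (81.8%, exact interval 64.5 to 93.0), while 39.5% of all protein-coding genes had one. No IgG peak was listed within 1 kb of a boundary of any member. The share of 0 of 33 members allows up to 10.6% for each IgG library, and 0.606% and 0.22% of all protein-coding genes had an IgG 1 or IgG 2 peak there. The members were compared as a description and no test of the list was made, because they share a function and were chosen with earlier results known. The signal was low at many of them: with at least 20 fragments required in both PPP2CA libraries, 17 members (51.5%) and 26.5% of all protein-coding genes remained.

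By module, a region was present at all 7 kinase module genes, at 4 of 4 genes whose products sit between head and tail (Med27, Med28, Med29 and Med30), at the scaffold gene Med14, at 7 of 9 middle genes, at 5 of 7 head genes and at 3 of 5 tail genes. With numbers this small no module was set apart from another. The median signal at the marked members was slightly above that at marked genes in general, a difference that was not tested. The median summit of the 27 held 31 and 35 fragments in PPP2CA 1 and 2, and that of all 8609 marked protein-coding genes held 29 and 32. The median fold over the local background of the same library, the authors' own value, was 7.61 and 7.39 at the members and 7.08 and 7.03 at all marked genes. Of the 27 best regions, 6 (22.2%) were in the top 10% of all regions by the worse of their ranks in the 2 libraries, as were 14.9% of those of all marked genes. At the low end the shares were near each other: 10 of the 27 (37.0%) were below 20 fragments in at least 1 library, and 33.0% of all marked genes.

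**Figure D1:**
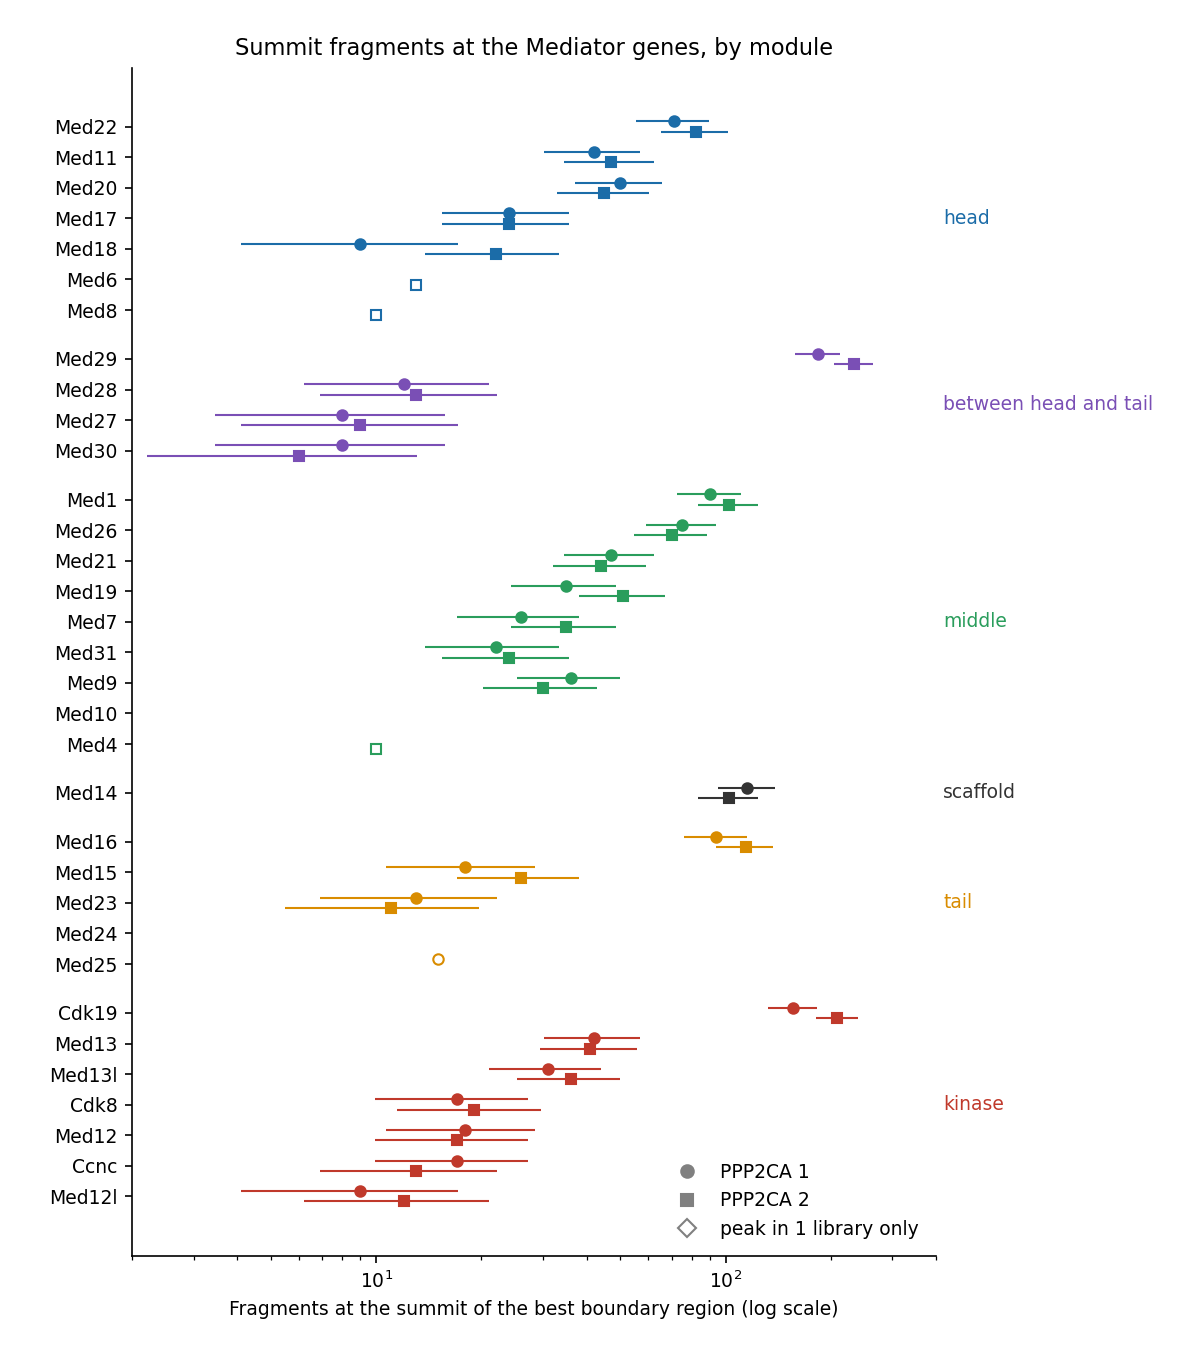
Fragments at the summit of the best boundary region of each Mediator gene in PPP2CA 1 (circles) and PPP2CA 2 (squares), on a log axis, with exact Poisson 95% intervals; genes are grouped by module. Med29 and Cdk19 stand highest with 156 to 233 fragments, Med30 is lowest with 8 and 6, and open symbols mark genes with a boundary peak in 1 library only; for Med9 the best region lies at the gene's end.

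**Figure D2:**
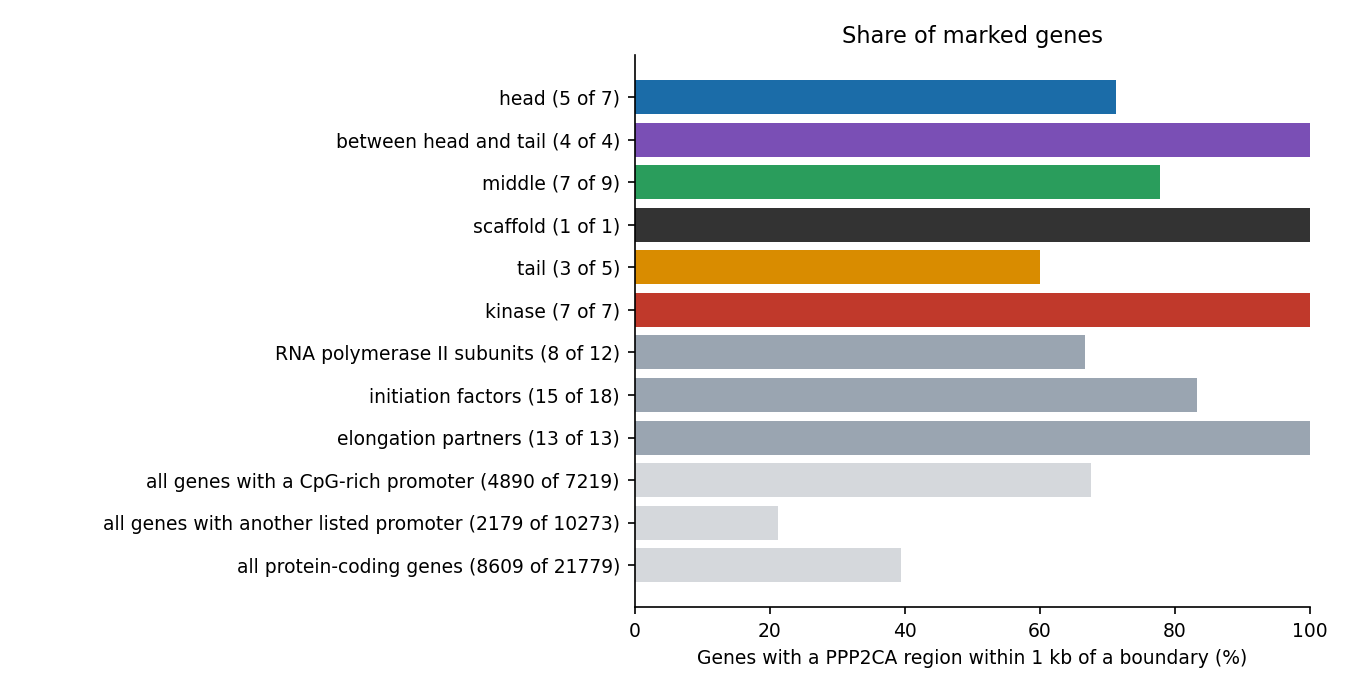
Percentage of genes with a PPP2CA region within 1 kb of a boundary, for the Mediator modules, for 3 sets of partner genes, for all genes with CpG-rich and with other promoters and for all protein-coding genes, with the counts beside each name. The bars of the modules run from 60.0% to 100%, and that of all protein-coding genes is at 39.5%.

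The promoter sequences of the genes at the extremes are given here from the RefSeq table of GRCm38.p6, each with 250 bases before the listed start and the first 30 after it. Capitals mark the letters of any of 8 motifs that were searched on both strands, and where motifs overlap the capitals run together. Med29 (chr7:28392661-28392940, minus strand) had the highest summit of the members in that table, Med14 (chrX:12761944-12762223, minus) was the best on the X chromosome, and Med16 (chr10:79908909-79909188, minus) had the lowest G and C content of the 28 members in that table. Med6 (chr12:81594979-81595258, minus) is CpG-rich but was not marked in both libraries. Med10 has 2 listed starts on the plus strand, an outer one (chr13:69802120-69802399) without a peak and an inner one (chr13:69809632-69809911) with a peak in PPP2CA 2 only.
Med29: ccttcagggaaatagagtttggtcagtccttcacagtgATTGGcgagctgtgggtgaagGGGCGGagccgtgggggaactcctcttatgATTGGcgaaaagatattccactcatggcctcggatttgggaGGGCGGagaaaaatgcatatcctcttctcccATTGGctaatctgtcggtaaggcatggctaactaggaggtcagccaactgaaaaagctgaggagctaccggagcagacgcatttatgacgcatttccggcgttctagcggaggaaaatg
Med14: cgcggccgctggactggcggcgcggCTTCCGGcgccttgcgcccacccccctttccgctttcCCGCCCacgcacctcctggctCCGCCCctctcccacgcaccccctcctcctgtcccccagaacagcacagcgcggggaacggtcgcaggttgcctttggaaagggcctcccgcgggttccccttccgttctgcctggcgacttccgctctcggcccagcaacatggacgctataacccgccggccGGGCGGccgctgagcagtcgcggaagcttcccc
Med16: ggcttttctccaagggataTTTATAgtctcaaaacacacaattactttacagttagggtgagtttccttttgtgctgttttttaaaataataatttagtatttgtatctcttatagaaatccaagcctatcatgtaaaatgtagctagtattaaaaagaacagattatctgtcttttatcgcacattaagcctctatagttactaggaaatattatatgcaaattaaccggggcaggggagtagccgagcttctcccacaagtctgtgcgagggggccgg
Med6: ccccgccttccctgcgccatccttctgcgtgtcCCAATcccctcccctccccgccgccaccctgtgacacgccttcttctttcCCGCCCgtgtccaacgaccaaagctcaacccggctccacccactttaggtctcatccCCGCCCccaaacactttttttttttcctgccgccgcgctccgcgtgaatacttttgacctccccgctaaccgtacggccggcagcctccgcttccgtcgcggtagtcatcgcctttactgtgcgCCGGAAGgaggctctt
Med10 outer start: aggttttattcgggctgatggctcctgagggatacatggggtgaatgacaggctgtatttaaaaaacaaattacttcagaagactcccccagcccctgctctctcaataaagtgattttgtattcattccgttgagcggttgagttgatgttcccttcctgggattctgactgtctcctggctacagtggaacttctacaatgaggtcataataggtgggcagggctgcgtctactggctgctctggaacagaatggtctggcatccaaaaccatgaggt
Med10 inner start: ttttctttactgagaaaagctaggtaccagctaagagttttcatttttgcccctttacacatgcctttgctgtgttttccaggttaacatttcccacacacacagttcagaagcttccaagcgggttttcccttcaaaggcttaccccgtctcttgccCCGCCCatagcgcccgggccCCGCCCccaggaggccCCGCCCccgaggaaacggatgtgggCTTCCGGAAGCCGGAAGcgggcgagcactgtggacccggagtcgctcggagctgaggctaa

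In these windows Med29 held 3 CCAAT letters and 2 GGGCGG letters, Med14 held 1 CCGGAAG and 3 GGGCGG, and Med16 held TATAAA once, near the outer end of the window. Med6, without a region, held 1 CCGGAAG, 2 GGGCGG and 1 CCAAT. The inner start of Med10 held 3 CCGGAAG, which overlap or adjoin, and 3 GGGCGG, and the outer start held none of the 8 motifs. Such letters thus stood in windows of marked and of unmarked genes.

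The kinase module genes ran from the top to near the bottom of the members. Cdk19, one of the alternative kinases of the module, had 156 fragments (132 to 182) in PPP2CA 1 and 209 (182 to 239) in PPP2CA 2, with a fold of 12.8 and 12.7. Its region, chromosome 10 at 40348617 to 40349912, lay across the low-coordinate boundary and ranked 146 of 12438. No peak was listed there in IgG 1 or IgG 2. Cdk8, the other kinase, had 17 (9.90 to 27.2) and 19 (11.4 to 29.7) fragments at its start, with a fold of 6.98 and 7.16, and ranked 5954. The intervals of the paralogues did not overlap in either library.

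Med13, which ties the kinase module to the core complex, had 42 and 41 fragments in PPP2CA 1 and 2, and its paralogue Med13l had 31 and 36. These values lay within each other's counting intervals. Med12, the X-linked gene for the subunit that activates the kinase, had 18 and 17 fragments, and Ccnc, which encodes cyclin C, had 17 and 13. Med12l, the paralogue of Med12, was the lowest of the module with 9 and 12 fragments and a fold of 4.45 and 4.38. Its region was broad, at 1905 bp, and its summit lay at -865 and -1201 bp from the listed start, where a negative distance is before it. That listed start, 59006978, is inside the gene boundary of 59005419. The region began 5 bp inside the boundary, so both summits lay inside the gene. With 20 fragments required in both libraries Cdk19, Med13 and Med13l remained of the 7. At that limit 51.5% of all members and 26.5% of all protein-coding genes remained.

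The scaffold gene Med14 had 115 and 102 fragments with a fold of 12.5 and 11.3 (chromosome X at 12761619 to 12762528). With Med12 it made up the 2 members on the X chromosome, both marked, where 22.6% of 963 protein-coding genes had a region. Of the 7 members on chromosome 11, 6 were marked (Med1, Med7, Med9, Med11, Med13 and Med31), and 48.3% of the protein-coding genes there.

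In the middle module Med1, the subunit that binds nuclear receptors, was highest with 90 and 102 fragments (fold 12.4 and 11.5). Med26, which recruits elongation factors, followed with 75 and 70. Med21 had 47 and 44, Med19 35 and 51, Med7 26 and 35 and Med31 22 and 24 fragments. Of the middle genes only Med9 had a region at either boundary, as Med29 of another module also did. Med9 had 10 and 12 fragments at its start, and 36 and 30 in a region past its end. That region also lies at a boundary of Rasd1, a gene for a Ras-related GTPase. The signal at the end of Med9 can therefore not be told apart from signal at the neighbour.

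In the head module Med22 had 71 and 82 fragments, in a region that it shares with the ribosomal protein gene Rpl7a. Med11 had 42 and 47, Med20 50 and 45, and Med17, the central subunit of the head, 24 and 24. Med18 was the least even of all members, with 9 fragments (4.12 to 17.1) in PPP2CA 1 and 22 (13.8 to 33.3) in PPP2CA 2.

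The genes between head and tail were uneven. Med29 was the second best of all members, with 184 (158 to 213) and 233 (204 to 265) fragments and a fold of 9.29 and 9.69, and it ranked 174. Its region (chromosome 7 at 28392204 to 28393521) also covers a boundary of Paf1, which encodes a subunit of the PAF elongation complex. Med28 had 12 and 13 fragments, Med27 8 and 9, and Med30 8 and 6. None of these 3 reached 20 fragments in either library.

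A further region near the end of Med29, at 28386176 to 28386655, held more fragments, 271 and 293, but with a fold of 2.51 and 2.35. The local background there was 107 and 124 fragments. Between it and Zfp36, whose product drives mRNA decay, the region at 28380986 to 28383274 held 724 and 808 fragments. The high count at the end of Med29 therefore stood in a stretch of high signal next to another gene. The start of Med29 had a lower local background of 18.9 and 23.1 fragments.

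In the tail Med16 had 94 and 114 fragments, in a region shared with R3hdm4. Med15, a subunit that binds activators such as the sterol regulators, had 18 and 26. Med23 had 13 and 11 fragments at its low-coordinate boundary.

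Of the 6 members without a boundary region, 4 had a boundary peak in 1 PPP2CA library only, which is 12.1% of the 33 members, and 8.06% of all protein-coding genes had one. In PPP2CA 2 alone these were Med6 with 13 fragments, Med8 with 10 and Med4 with 10, and in PPP2CA 1 alone Med25 with 15 and a fold of 2.78. Med6 and Med8 encode head subunits, Med4 a middle subunit, and Med25 a tail subunit bound by viral and cellular activators. Their summits were within the range of the weakest marked members, and their signal in the other library was not measured. Med24 and Med10 had no boundary peak in either library, which is 6.06% of the 33 members, and 51.8% of all protein-coding genes had none. Med24 had 1 peak inside the gene, in PPP2CA 2 only, with 20 fragments. Med10 had a region inside the gene at 69813726 to 69814367 with 12 and 14 fragments. It also had a peak with 20 fragments in PPP2CA 2 alone, whose summit lay 457 bp past the inner start printed above.

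The regions sat at gene starts. Of the 28 members with a listed strand, 24 (85.7%) had a region within 1 kb of the start and 2 (7.14%) within 1 kb of the end, compared with 38.9% and 4.4% of the 17492 protein-coding genes with a listed strand. Cdk19, Med8, Med23, Med24 and Med30 were not placed this way. Among the 24, the summit was before the nearest listed start at 12 and past it at 12 in each library. A listed start can lie inside the gene boundary, so a summit before it can still be inside the gene, as at Med1 and Med14. The median distance was 181 bp in PPP2CA 1 and 169 bp in PPP2CA 2, and 142 and 146 bp over all protein-coding genes with a region at the start. The summits lay within 500 bp at 21 of 24 (87.5%), close to the 89.0% and 88.8% of all such genes in PPP2CA 1 and 2. The exceptions were Med13 (-706 and -685 bp), Med13l (-504 and -561 bp) and Med12l, 3 genes of the kinase module, and this was seen after the distances were known. Of these, only Med13 has its listed start at the gene boundary. The listed start of Med13l, 118560719, is inside its boundary of 118560330, and its summits lay closer to that boundary. The summits of Med12l lay inside the gene. Best regions were shared with a boundary of another protein-coding gene at 7 of the 27 marked members (25.9%), and at 32.8% of all marked genes. Those were Med29, Med16, Med22, Med20 (with Bysl, a ribosome assembly gene, and Gm20517), Med19 (with Tmx2), Med31 (with 4930563E22Rik) and Med9.

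**Figure D3:**
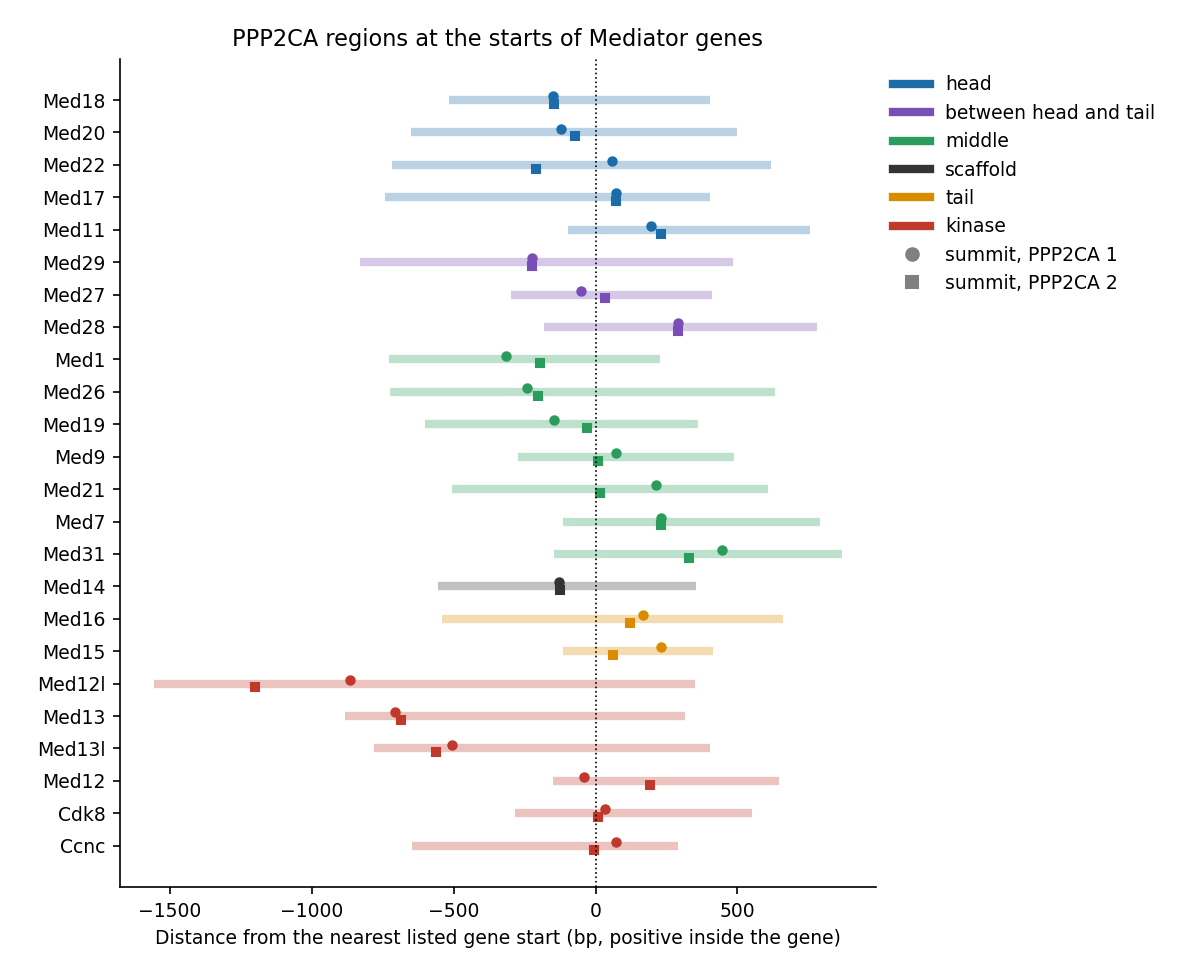
PPP2CA regions (bars) and their summits in PPP2CA 1 (circles) and PPP2CA 2 (squares) for the 24 Mediator genes with a region at the start. The axis is the distance in bp from the nearest listed start, positive past it in the direction of transcription. Negative values can also lie inside the gene, where the listed start is inside the gene boundary. Colours give the module. Summits gather within 500 bp of the listed start at 21 genes, and those of Med12l, Med13 and Med13l lie further before it. Those of Med12l are nonetheless inside the gene boundary.

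Regions inside the genes were found in 4 members. Med10 was the only member with a region in the body and none at a boundary (3.03%, and 5.79% of all protein-coding genes). Together with 5 regions in 3 long kinase module genes, there were 6 such regions. Cdk19 had 2, with 20 and 24 fragments at 40451708 to 40452718 and 19 and 25 at 40476425 to 40477394. Med12l had 2, with 15 and 16 fragments at 59081023 to 59081355 and 12 and 12 at 59119879 to 59120654, the second also at a boundary of P2ry14, which encodes a nucleotide-sugar receptor. Med13l had 1, with 17 and 30 fragments at 118636398 to 118637200. A body region was present in 3 of the 9 members of 50 kb or more, and in 22.7% of the 4935 protein-coding genes of that length. Those 9 members held 0.415 body regions per 100 kb, and all genes of that length 0.212, with 5 regions behind the members' value. Among shorter genes it was 1 of 24 members and 7.18% of all. Med27, Med14, Med13, Cdk8, Med15 and Med26, also over 50 kb, had none.

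Cdk8 held the only place with a control peak. At 146260993 to 146261355 on chromosome 5, inside the gene, PPP2CA 1 and 2 had 53 and 55 fragments with a fold of 14.8 and 14.6, and IgG 1 had 9 fragments with a fold of 6.99, while no IgG 2 peak was listed. The place was 363 bp wide, and its PPP2CA summits were higher than the 17 and 19 fragments at the Cdk8 start. Divided by the ratio of lowest backgrounds, 9.34 to 9.61, those PPP2CA summits fall below the 9 fragments of IgG 1. Because of the added 1, the folds of the antibodies are not comparable here either. This place was left out of the regions because of the IgG 1 peak. Members of that kind, with an IgG peak at a boundary or in the body, were 1 of 33 for IgG 1 and 0 of 33 for IgG 2, and 1.46% and 0.721% of all protein-coding genes.

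The lack of IgG peaks says little for the weaker members. The lowest local background of the PPP2CA lists was 9.34 to 9.61 times that of the IgG lists. Divided by that ratio, the Cdk19 summit corresponds to 16.2 to 22.4 fragments at IgG depth, that of Med29 to 19.2 to 24.9 and that of Med14 to 10.6 to 12.3. The lowest listed IgG summit held 3 fragments. At 11 of the 27 marked members the scaled summits of both libraries reached the median IgG summit of 4 fragments. At the other 16 at least 1 of them did not, and a difference from IgG could not be shown firmly at this depth. The median is over listed peaks and is not a detection limit. Some of the 11 were close to it, such as Med13 at 4.27 to 4.50 and Med11 at 4.37 to 5.03. Reaching it does not show a difference from IgG either.

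The PPP2CA libraries were close to each other at most marked members, which were kept only where both libraries had a peak. The 4 members with a boundary peak in 1 library only could not be compared. PPP2CA 2 was higher at 16 of the 27, equal at 1 and lower at the rest, with a median ratio of 1.12, next to a scale between the libraries of 1.09. A two-sided exact binomial test of summit fragments, with Benjamini-Hochberg adjustment over all 12631 places found in both libraries, called 4 places (0.0317%) and 0 members. The smallest member p was 0.0466, for Med18 (exact test, adjusted p = 1, ratio 2.44), and it was the 1 member with an unadjusted p under 0.05. Over all places 263 (2.08%) were under that limit. That no member was called does not show that the libraries were equal there. Values are given per library, with no SD.

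**Figure D4:**
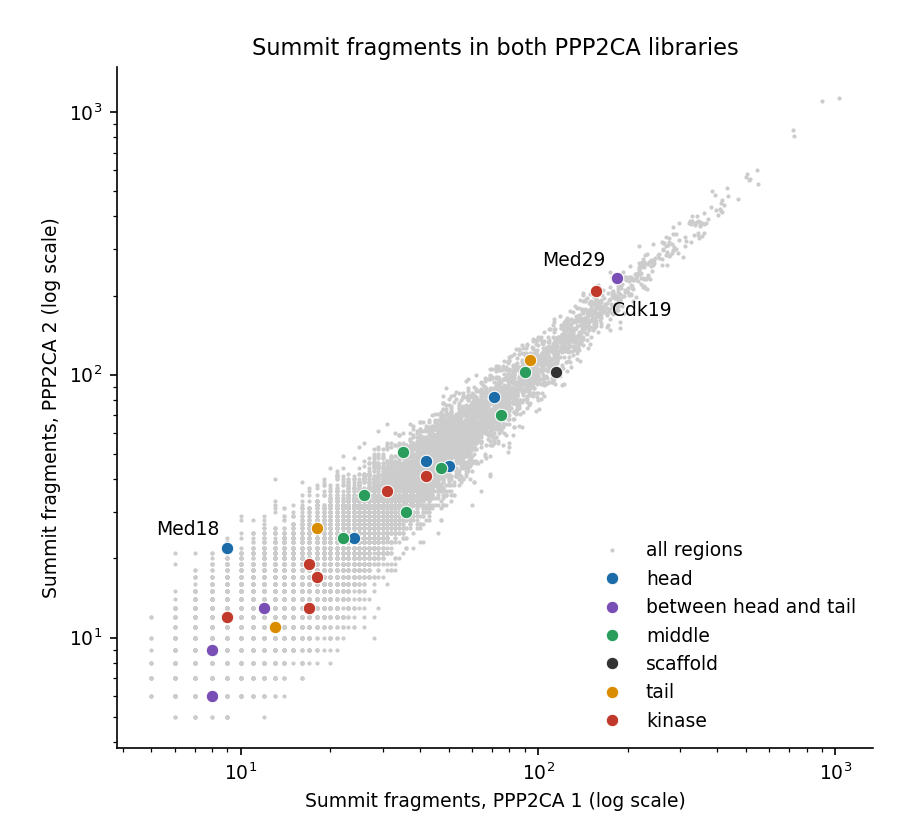
Summit fragments in PPP2CA 2 (vertical) and PPP2CA 1 (horizontal) on log axes, for all 12438 regions (grey) and the best boundary regions of the 27 marked Mediator genes (coloured by module). The members lie inside the grey band, with Med18 (9 in PPP2CA 1, 22 in PPP2CA 2) near its edge.

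The members' promoters were also described by base composition, which the choice of members did not use. The median ratio of observed to expected CpG was 0.841 over the 28 members with a listed promoter, 0.577 over all 17492 protein-coding genes with one and 0.804 over the marked ones. Of the members, 17 (60.7%) had a CpG-rich promoter, meaning a ratio of at least 0.6 and at least 55% G and C, and 41.3% of all genes did. Among genes with a CpG-rich promoter a region was present at 14 of 17 members, and at 67.7% of 7219 genes. Among the others it was present at 10 of 11 members, and at 21.2% of 10273 genes. Of those members, Med7, Med16, Med18, Med19, Med27, Med28 and Med29 met the CpG limit and missed only that of G and C. Over all genes with a listed promoter, 9026 had a ratio under 0.6. The groups thus differed in composition, and their shares are not like for like. With the CpG ratio alone as the limit the members had 21 of 24 and all genes 67.0%, and below it 3 of 4 members and 15.5% of all genes. Those 3 were just under the limit: Med11 at 0.588, Med15 at 0.593 and Med31 at 0.541. Med10, the unmarked one, was at 0.239. Only the outermost listed start was used, and the inner starts of Med15 and Med10 were above the limit, at 0.664 and 0.769. The shares below the limit therefore do not compare promoters of like composition. The limits were set after values had been seen, and the part of promoter composition in the members' share was not tested.

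Single motifs were found in the members' windows, 250 bases before to 50 after the start, about as in those of marked genes. CCGGAAG, the core of ETS factor sites, was in 7 of 28 (25.0%; 11.9% of all promoters and 21.2% of marked ones). Those 7 were Med4, Med6, Med14, Med15, Med17, Med18 and Med19. GGGCGG, the GC box, was in 18 (64.3%; 46.3% and 69.3%), and CCAAT, bound by NF-Y, in 11 (39.3%; 39.2% and 40.2%). TATAAA was in 3 (10.7%; 13.3% and 6.2%) and TGACGTCA, the site of CREB and ATF factors, in 1, at Med21 (3.57%; 2.33% and 3.93%). The NRF1 site, the YY1 site and a palindrome with a central CGCG were in none of these windows, and in 1.33%, 0.972% and 0.726% of all promoters. Motifs were searched on both strands, only the outermost listed start of each gene was used, and a match is not evidence of binding.

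Partners of Mediator in transcription had regions at a like share. A list of 43 such genes, kept apart from the members, had 36 with a boundary region (83.7%). All 13 elongation partners were marked, led by Ell with 186 and 184 fragments and Ccnt1, the cyclin partner of CDK9, with 176 and 185. Cdk9 itself had 125 and 164. Initiation factors had 15 of 18, led by Gtf2a1 with 213 and 198 fragments, while Gtf2h1, Gtf2h4 and Mnat1 had none that passed all rules. RNA polymerase II subunits had 8 of 12, led by Polr2h with 103 and 121, and Polr2a, Polr2f, Polr2k and Polr2l had none that passed all rules. With IgG peaks allowed, 9 of the 12 had one. Cdk7, the kinase of the initiation factor TFIIH, had 39 and 35.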

How the data were processed

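The 4 libraries were grouped by their titles into PPP2CA and IgG, each with replicates 1 and 2. For each library the authors deposited a narrowPeak list. Per the submitters' processing notes, BWA, Trimmomatic, MACS2, HOMER, ChIPseeker and deepTools were used with mm10 (GRCm38), and roles, versions and settings are not given in the sources used here. Each deposited peak has a fold (a ratio over local background), a −log10 p, a −log10 q and a score of 10 times the −log10 q. Whether IgG served as a control in calling is not given.

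Summit fragments were recovered from the deposited fold, taken as (fragments + 1) / (background + 1), and the −log10 p of a Poisson tail. Whole numbers with a relative error of at most 2e-05 came out for 100% of peaks. PPP2CA peaks were merged (overlap of at least 1 bp), and places found in both libraries without an IgG peak were kept. Genes came from RefSeq (GRCm38.p6), without entries below 3 Mb on chromosomes other than Y. Strand and starts came from the RefSeq promoter table. Ranks use the −log10 q. Computations used Python 3.11.15 and scipy 1.17.1. On simulated counts at 12631 places, 80.0% of 200 planted 3-fold changes were called, and 0.072% of the unchanged places. Changes were planted only at places with an expected count of 20 or more fragments. The 80.0% therefore does not cover weaker places, and 10 of the 27 marked members were below 20 fragments in at least 1 library.

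The members, the partner and marker lists, the tests and the rule for full values (the 12 best members, the kinase module, members without a boundary region, those with an IgG peak, and genes sharing a region) were chosen with earlier results of these data known.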

Additional observations from a re-analysis of the deposited data

How the results depend on the processing

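Of 12 alternatives for the count of marked members (27), 11 gave 22 to 30, and a minimum of 20 fragments in both PPP2CA libraries gave 17. In shares, those 11 gave 66.7% to 90.9% of members and 27.1% to 45.3% of all protein-coding genes. The fragment minimum gave 51.5% and 26.5%. Leaving out 1 library gave 27 to 30 members and 8641 to 9540 of all protein-coding genes. Of the 27, 10 were marked under all 12 alternatives (Cdk19, Med1, Med7, Med9, Med11, Med13l, Med14, Med21, Med26 and Med29), and of the 6 unmarked members Med24 stayed unmarked in all. No single region of Med9 did so. Med9 met the fragment minimum by its end region, shared with Rasd1. With shared regions left out, it was marked by its start region of 10 and 12 fragments. How many of all protein-coding genes stayed marked under all 12 alternatives was not counted.

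Members marked in the body only numbered 1, but 2 with a reciprocal overlap of 50%, 0 with the fragment minimum, 0 with a window of 2 kb and 1 to 2 without 1 library. The median summit in PPP2CA 1 (31) was 36 with −log10 q of 5 or more, 35 with reciprocal overlap, 47 with the fragment minimum, 26 with a window of 500 bp and 28.5 to 31 without 1 library. In PPP2CA 2 (35) it was 41 with −log10 q of 5 or more, 47 with the fragment minimum and 28 to 35 without 1 library. The median fold in PPP2CA 1 (7.61) was 7.91 with −log10 q of 5 or more, 8.38 with the fragment minimum, 7.12 with a window of 2 kb and 7.43 to 7.61 without 1 library, and in PPP2CA 2 (7.39) it was 8.23 with the fragment minimum, 6.90 with a window of 2 kb and 6.90 to 7.39 without 1 library. Members with an IgG peak numbered 0 to 1 without 1 IgG library. The median ratio as scale gave 1 place that differed between the PPP2CA libraries, in place of 4. The cause of these shifts was not tested. No paired analysis was possible because the lists hold values only at called peaks and no IgG peak was listed at a member's boundary, so no result tests PPP2CA against IgG.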

Other observations

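Some places in the members were listed in a single PPP2CA library, and 2 of them in Med13l adjoined. PPP2CA 1 had a peak at 118574409 to 118574801 with 8 fragments and PPP2CA 2 had one at 118574835 to 118575244 with 10 fragments, so neither counted as found in both. Med27 had 3 single-library peaks in its body, with 6 to 8 fragments, and Med12l had 2 in PPP2CA 2, with 10 and 13. Cdk19 had 1 in PPP2CA 2 with 18 fragments, close to the 20 and 24 of a region of both libraries in the same gene.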
